A study of Mus musculus with 3 samples.

Results

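Islets of mice on a high-fat diet were compared with islets of mice on the diet labelled ND across all 22899 genes of the deposited table that pairs these libraries. Pancreatic islets are the clusters of endocrine cells in the pancreas. HFD_DMSO islets came from male C57BL/6 mice on a high-fat diet, and ND islets from male C57BL/6 mice on the diet labelled ND. Mice of both groups received DMSO, a solvent, by oral gavage for 1 month, so the vehicle is shared and the diet differs. Each group is 1 library out of 3 in the series. The number of animals behind a library is not stated in the labels, nor whether the stated 4 months are an age or a time on diet. The comparison asks how islet transcripts differ with the diet, but with 1 library a side no difference below has a replicate check, and none can be assigned to the diet rather than to these libraries.

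Values are normalized counts, which are read counts scaled by the authors so that both libraries share a common size. The difference of a gene is log2 of (HFD_DMSO + 1) over (ND + 1), where 1 is a pseudocount that shrinks the change of low genes. Described first are the 11263 genes that reached 100 normalized counts in the higher of the libraries. Among them a gene is called higher or lower where it differed by 2-fold or more, which is a rule of size and not a test. Of these genes 1828 (16.2%) were higher and 2427 (21.5%) lower in HFD_DMSO, which is 37.8% in either direction. Their median was -0.12, with quartiles at -0.88 and 0.65. Counts on the lists below are to be read beside the 16.2% and 21.5% of all these genes. A list member that reached 100 in only 1 library entered through the library where it was higher, which shapes the list counts and medians. Scaling by library totals instead shifts every difference by -0.54, and 875 genes are then higher and 4290 lower. Medians between 0 and 0.54 turn negative under that scaling. Among the 11636 genes under 100 in both libraries, where few reads make differences imprecise, 28.4% lay past 2-fold upward and 33.9% downward, and the median was -0.09.

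Islets hold beta cells, which make insulin, alpha cells, which make glucagon, and fewer delta and PP cells, which make somatostatin and pancreatic polypeptide. Beta cells sense glucose through its uptake and phosphorylation, close potassium channels, admit calcium and release insulin from dense granules. High-fat feeding of mice is widely used to raise the demand on beta cells. Isolated islets carry vessels, stromal cells, macrophages and remnants of the exocrine pancreas, whose acinar cells secrete digestive enzymes and whose ducts carry them away. In bulk RNA, fewer cells of a type and less RNA per cell cannot be told apart.

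The libraries held 16297510 reads in HFD_DMSO and 17128521 in ND, with at least 1 read for 20377 and 21859 genes. Counting intervals below are 95% intervals and cover counting error only. The 10 most abundant genes took 52.4% of the HFD_DMSO reads and 26.2% of the ND reads. The most abundant 7 genes in HFD_DMSO held 50% of its reads, against 396 genes in ND. Islet markers were present in both libraries, at a summed normalized count of 9343536 in HFD_DMSO and 2712026 in ND over 6 genes, so the tissue label stands. Fibroblast and stellate cell markers summed to 5516 in HFD_DMSO and 176 in ND, and all 5 of 5 were higher. Acinar markers summed to 9286 in HFD_DMSO and 100653 in ND over 5 genes. The 4 macrophage markers summed to 2307 in HFD_DMSO and 1661 in ND, and the 4 lymphocyte markers to 48.3 in HFD_DMSO and 6.42 in ND. The adipocyte gene Cidec had 0 reads in HFD_DMSO and 5 in ND, and the B cell gene Ms4a1 8 in HFD_DMSO and 0 in ND.

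**Figure D1:**
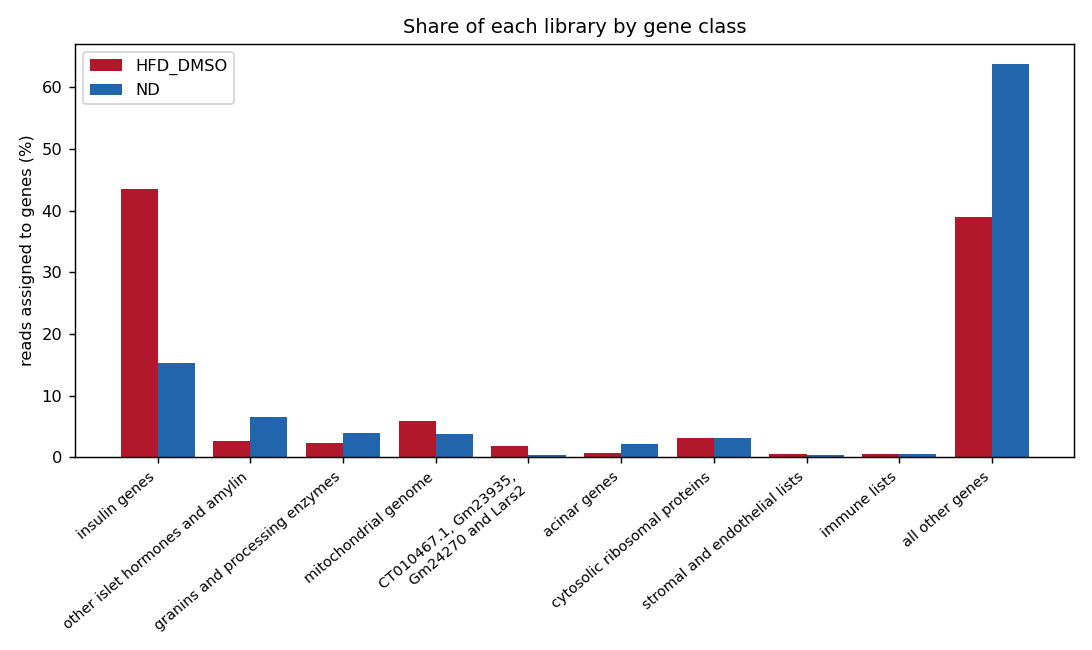
Share of the reads assigned to genes in HFD_DMSO (left bar of each pair) and ND (right bar), in percent, by gene class, 1 library each. Insulin genes took 43.5% in HFD_DMSO and 15.3% in ND, and genes outside the named classes 38.9% in HFD_DMSO and 63.9% in ND.

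Differences followed the base composition of the transcripts. Over 10 bins of protein-coding genes ordered by transcript GC content, the median log2 difference was -1.15 in the lowest bin and 0.86 in the highest. In the lowest bin 4.00% of genes were higher and 56.8% lower, and in the highest bin 43.5% were higher and 1.86% lower. Across these 10744 genes Spearman's rho between GC content and the difference was 0.61, a description over genes that share the same pair of libraries. Values after centring each gene on genes of like GC content are therefore given beside many results below, including the lists whose counts that centring moved most. After that centring 1485 genes (13.2%) were higher and 1187 (10.5%) lower of 11253, and 1042 of the higher genes and 897 of the lower genes were shared with the counts above. The part of base composition in any single difference was not tested.

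**Figure D2:**
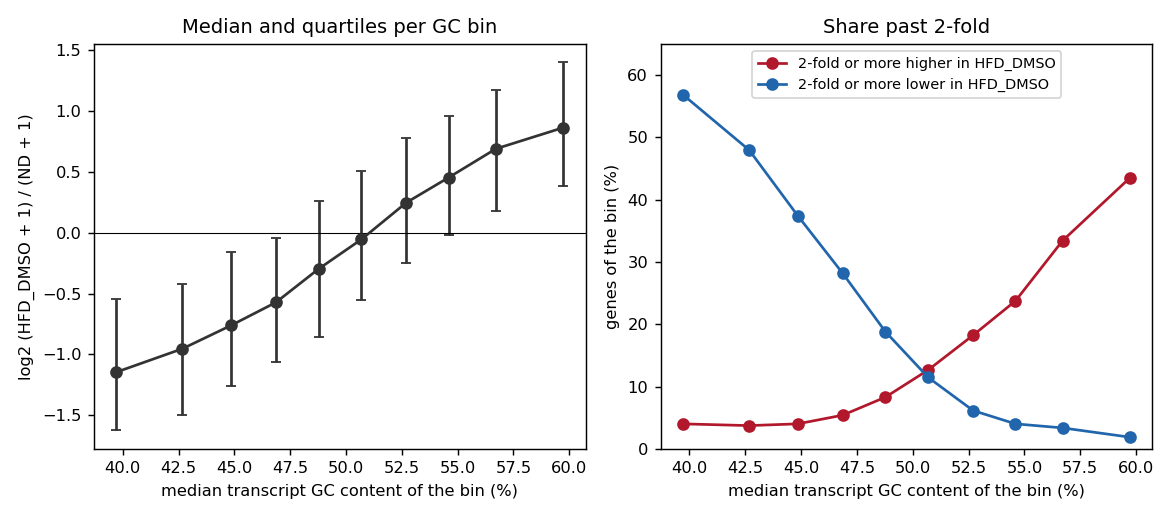
Left, median and quartiles of the log2 difference (HFD_DMSO over ND) per bin of protein-coding genes (10 bins), against the median transcript GC content of the bin in percent. Right, percent of the genes of each bin that were 2-fold or more higher or lower in HFD_DMSO; medians run between -1.15 and 0.86.

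The insulin genes were higher in HFD_DMSO islets, while amylin and most other islet hormones lay inside 2-fold and glucagon was lower. Ins1 (chromosome 19, 52264323 to 52265456), a rodent insulin gene, had 2775897 normalized counts in HFD_DMSO and 261023 in ND (log2 3.41, counting interval 3.41 to 3.42). Ins2 (chromosome 7, 142678656 to 142743381), the rodent counterpart of human insulin, had 5984352 in HFD_DMSO and 1862002 in ND (log2 1.68, counting interval 1.68 to 1.69). Ins1 made up 31.7% of the reads of both genes in HFD_DMSO and 12.3% in ND, so the pair did not scale together. The genes are close paralogs, so reads could be assigned to the wrong copy. Per kilobase of transcript, Ins1 stood at 2732182 in HFD_DMSO and 256912 in ND, and Ins2 at 4561244 in HFD_DMSO and 1419209 in ND. Amylin, encoded by Iapp and co-secreted with insulin, had 343944 in HFD_DMSO and 450122 in ND (log2 -0.39). There were 39.3 Iapp reads for each 1000 insulin reads in HFD_DMSO and 212 in ND.

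Glucagon stood apart among the remaining hormones. Gcg (chromosome 2, 62474530 to 62483650), which encodes glucagon, had 57500 in HFD_DMSO and 302259 in ND (log2 -2.39, and -1.54 after GC centring). Of the reads of 6 hormone genes it took 0.642% in HFD_DMSO and 11.8% in ND. Somatostatin, Sst, had 51907 in HFD_DMSO and 51787 in ND (log2 0.00). Pancreatic polypeptide, Ppy, had 52254 in HFD_DMSO and 65509 in ND (log2 -0.33), and peptide YY, Pyy, had 34748 in HFD_DMSO and 26891 in ND (log2 0.37). Of 12 alpha-cell genes 0 were higher and 5 lower (median -0.81, and -0.78 after GC centring). The lower members include the transcription factor Irx2 (129 in HFD_DMSO and 355 in ND, log2 -1.46) and the amino acid transporter Slc7a2 (2023 in HFD_DMSO and 5208 in ND, log2 -1.36). Ttr, the thyroxine carrier that is abundant in alpha cells, had 28062 in HFD_DMSO and 36833 in ND (log2 -0.39). Alpha-cell genes were thus not lower to a common degree.

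No beta-cell transcription factor on the list of 19 was higher, and 7 were lower, with a median of -0.89 (-0.70 after GC centring). St18, a zinc finger factor, had 497 in HFD_DMSO and 3032 in ND (log2 -2.61). Myt1, a related factor, had 434 in HFD_DMSO and 1326 in ND (log2 -1.61), and Rfx6, which islet development needs, had 1441 in HFD_DMSO and 4326 in ND (log2 -1.59). The factors that activate the insulin genes lay inside 2-fold: Mafa had 6050 in HFD_DMSO and 8974 in ND (log2 -0.57), Pdx1 1504 in HFD_DMSO and 1962 in ND (log2 -0.38), Neurod1 1118 in HFD_DMSO and 1814 in ND (log2 -0.70) and Nkx6-1 3027 in HFD_DMSO and 2721 in ND (log2 0.15). Mafa and Pdx1 stood at -1.48 and -1.06 after GC centring.

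Among 18 beta-cell maturity genes 0 were higher and 8 lower, and 6 were lower after GC centring. Glp1r (chromosome 17, 30901867 to 30936510), the receptor of the incretin GLP-1, had 79 reads in HFD_DMSO and 1629 in ND, or normalized counts of 97.6 in HFD_DMSO and 1318 in ND (log2 -3.74). Gpr119, a lipid receptor, had 72.9 in HFD_DMSO and 579 in ND (log2 -2.97). Slc2a2, the glucose transporter of the mouse beta cell, had 2386 in HFD_DMSO and 16627 in ND (log2 -2.80), and Slc30a8, which loads zinc into insulin granules, 6065 in HFD_DMSO and 21750 in ND (log2 -1.84). These 4 differences ran between -3.59 and -1.15 after GC centring. Some receptors of the list were not lower, with Gipr, the receptor of the other incretin, at 4253 in HFD_DMSO and 2584 in ND (log2 0.72) and Ffar1, a fatty acid receptor, at 3377 in HFD_DMSO and 2056 in ND (log2 0.72). Ucn3, a late marker of beta-cell maturity that encodes a secreted peptide, had 10637 in HFD_DMSO and 10017 in ND (log2 0.09).

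Of 16 genes of prohormone processing and granins, 2 were higher and 5 lower (median -0.12). Pcsk1, the convertase that makes the first cut in proinsulin, had 2612 in HFD_DMSO and 15834 in ND (log2 -2.60), and Pcsk2, the convertase that acts with it, 35843 in HFD_DMSO and 47313 in ND (log2 -0.40). Cpe, which trims the cut ends, had 49255 in HFD_DMSO and 53474 in ND (log2 -0.12). Pam, which amidates peptides, had 2920 in HFD_DMSO and 8991 in ND (log2 -1.62), and the granin Scg2 50298 in HFD_DMSO and 192556 in ND (log2 -1.94). Pcsk1n, which encodes an inhibitor of Pcsk1, had 34610 in HFD_DMSO and 10384 in ND (log2 1.74), and Chga, chromogranin A, 234812 in HFD_DMSO and 134196 in ND (log2 0.81). Pcsk1 and its inhibitor thus differed in opposite directions, by -1.52 and 1.08 after GC centring. The granule tyrosine phosphatase-like genes were split as well, with Ptprn at 9249 in HFD_DMSO and 3927 in ND (log2 1.24) and Ptprn2 at 697 in HFD_DMSO and 5485 in ND (log2 -2.97). After GC centring, however, Ptprn stood at 0.38, inside 2-fold, and Chga at -0.05.

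In the exocytosis machinery 2 of 25 genes were higher and 8 lower (median -0.46), and after GC centring 1 was higher and 4 lower (median -0.17). Several of the lower members tether or prime granules. Rab27a, a small GTPase of granules, had 1372 in HFD_DMSO and 3981 in ND (log2 -1.54), its effector Exph5 70.5 in HFD_DMSO and 529 in ND (log2 -2.89), and the priming factor Cadps 565 in HFD_DMSO and 2749 in ND (log2 -2.28). The SNARE gene Snap25 had 1085 in HFD_DMSO and 2351 in ND (log2 -1.11), and stood at 0.01 after GC centring. Abcc8, the sulfonylurea receptor of the KATP channel, had 16827 in HFD_DMSO and 13270 in ND (log2 0.34). Of 33 potassium channel genes 7 (21.2%) were higher and 9 (27.3%) lower, near the 16.2% and 21.5% of all genes with 100 or more. Kcnn4 (274 in HFD_DMSO and 22.6 in ND, log2 3.54) was near the top and Kcnmb2 (593 in HFD_DMSO and 2638 in ND, log2 -2.15) at the bottom. Of 10 calcium channel genes 2 were higher and 2 lower (20% each, near those shares too), and after GC centring 1 was higher and 0 lower. Cacna1d, which encodes an L-type channel, had 713 in HFD_DMSO and 1638 in ND (log2 -1.20), and stood at -0.95 after GC centring, while Cacng4 and Cacnb3, which encode auxiliary subunits, had 321 in HFD_DMSO and 76.9 in ND (log2 2.05) and 1227 in HFD_DMSO and 530.1 in ND (log2 1.21). Slc8a1, the sodium-calcium exchanger, had 7.43 in HFD_DMSO and 346 in ND (log2 -5.36).

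Disallowed genes are widely expressed genes that mature beta cells keep low. Of the 18 on the list that reached 100, 15 were higher and 0 lower, and their median was 2.07 (2.22 after GC centring). All 18 reached 100 in HFD_DMSO but only 3 in ND, so the others entered the count through the library where they were higher. Over all 23 with a value, without the minimum, the median was 1.97. Ldha, lactate dehydrogenase, had 439.9 in HFD_DMSO and 188 in ND (log2 1.22). Hk1, a hexokinase with high glucose affinity, had 138 in HFD_DMSO and 69.6 in ND (log2 0.98). Mgst1, a membrane glutathione transferase, had 547 in HFD_DMSO and 22.6 in ND (log2 4.54), and catalase, Cat, 248 in HFD_DMSO and 65.5 in ND (log2 1.91). Fibroblast markers were higher in the same library. Of the 18, 9 also stand on another list, which is not always a stromal one. Pdgfra and Igfbp4 stand on stromal lists, Mgst1 and Cat on the antioxidant list and Cxcl12 on the chemokine list. Of the 9 on no other list 8 were higher, which does not mark them as free of stromal RNA. The part of stromal RNA in this list was not tested. Among 9 progenitor and dedifferentiation genes 4 were higher and 1 lower. Sox9, a duct and progenitor factor, had 256 in HFD_DMSO and 6.46 in ND (log2 5.11), Myc 339 in HFD_DMSO and 48.5 in ND (log2 2.78) and vimentin, Vim, 892 in HFD_DMSO and 169.9 in ND (log2 2.39). Aldh1a3, a marker of failing beta cells in mice, had 44.5 in HFD_DMSO and 125 in ND (log2 -1.47).

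**Figure D3:**
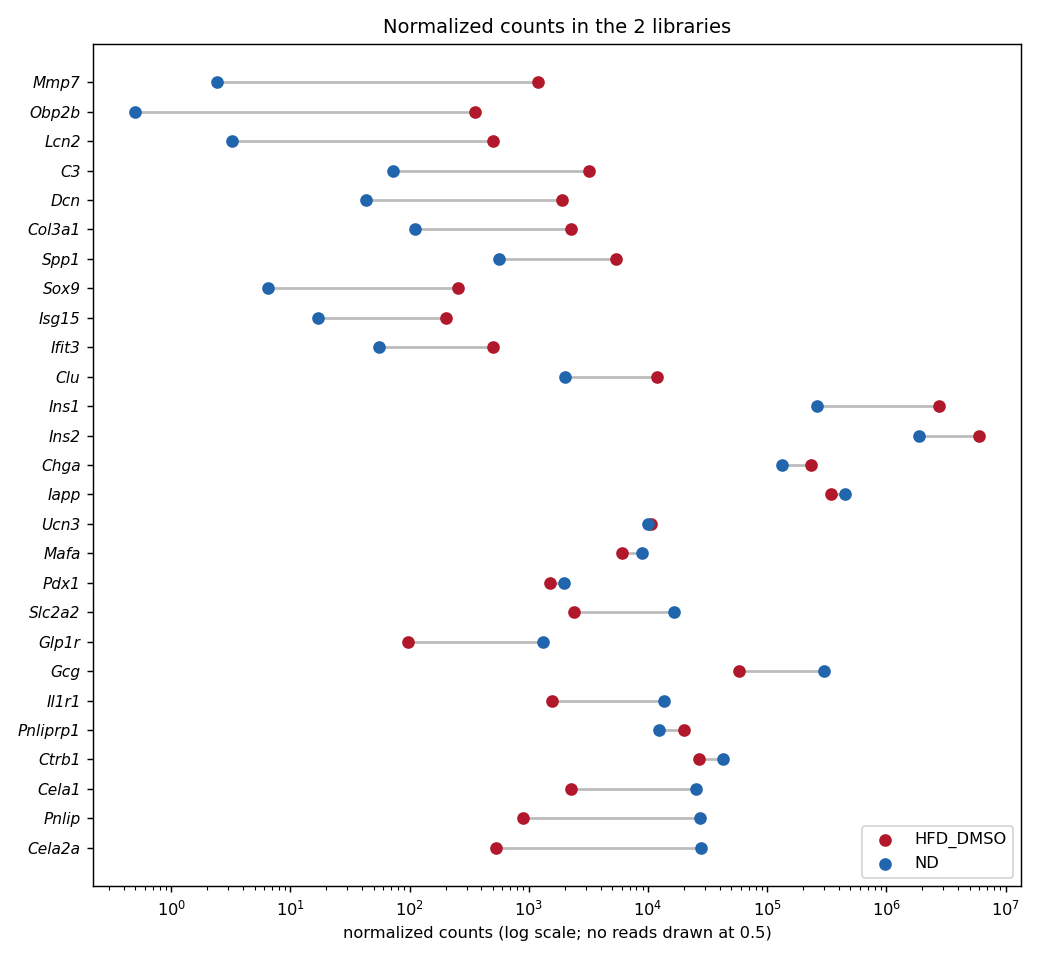
Normalized counts (log axis) of 27 genes in HFD_DMSO and ND, 1 library each, joined by a line; a gene with no read is drawn at 0.5. The genes were picked from those described in the text after their values were seen. Ins1 and Ins2 lie to the right in HFD_DMSO, and Glp1r, Gcg, Il1r1, Pnlip and Cela2a to the right in ND.

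Digestive enzyme genes of acinar cells were mostly lower. Of 9 elastases, chymotrypsins and carboxypeptidases 0 were higher and 6 lower (median -1.72, and -1.33 after GC centring), and of 11 lipases and amylases 0 were higher and 9 lower (median -1.89, and -1.95 after GC centring). The lowest of these, Amy2b at log2 -6.74, is annotated as an unprocessed pseudogene, and the amylase copies can share reads. Cela2a (chromosome 4, 141814962 to 141826160), an elastase, had 528 in HFD_DMSO and 27897 in ND (log2 -5.72), and Pnlip, pancreatic lipase, 887 in HFD_DMSO and 27388 in ND (log2 -4.95). The differences were unequal within the same cell type's products. Ctrb1, chymotrypsinogen, had 26852 in HFD_DMSO and 42809 in ND (log2 -0.67), and Cpb1, a carboxypeptidase, 8261 in HFD_DMSO and 15655 in ND (log2 -0.92). Pnliprp1, a lipase-related protein, had 20244 in HFD_DMSO and 12428 in ND (log2 0.70). Among 6 trypsins and Spink1, 2 were higher and 3 lower, with Try4 at 749 in HFD_DMSO and 9336 in ND (log2 -3.64) and Try5 at 9999 in HFD_DMSO and 7992 in ND (log2 0.32). Trypsin and amylase genes are near-identical copies, so reads can be split between them in ways that do not reflect the gene.

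The list of other acinar genes held 3 higher and 5 lower members of 14. Rbpjl, an acinar transcription factor, had 1331 in HFD_DMSO and 72.8 in ND (log2 4.17), and Nr5a2, another, 255 in HFD_DMSO and 26.7 in ND (log2 3.21). The third higher member was Erp27, a protein of the endoplasmic reticulum, with 298 in HFD_DMSO and 106 in ND (log2 1.48). Bhlha15, an acinar factor too, had 1045 in HFD_DMSO and 671 in ND (log2 0.64), and stood at -0.04 after GC centring. Among the lower members, Gp2, the main zymogen granule membrane protein, had 89.0 in HFD_DMSO and 1881 in ND (log2 -4.39), Sycn 499 in HFD_DMSO and 4953 in ND (log2 -3.31) and Rnase1 614 in HFD_DMSO and 7560 in ND (log2 -3.62). Ptf1a, the partner of Rbpjl, had 56 reads in HFD_DMSO and 6 in ND, under 100 normalized counts, and is not among the 14.

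Duct genes were higher in part. Of 20, 10 were higher and 1 lower (median 0.98, and 0.76 after GC centring). Spp1, osteopontin, had 5355 in HFD_DMSO and 558 in ND (log2 3.26), Krt19, a duct keratin, 379 in HFD_DMSO and 32.4 in ND (log2 3.51), and Car2, carbonic anhydrase, 190.3 in HFD_DMSO and 3.22 in ND (log2 5.50). General epithelial genes lay inside 2-fold, with Epcam at 1884 in HFD_DMSO and 2290 in ND (log2 -0.28) and Cdh1, E-cadherin, at 2398 in HFD_DMSO and 2712 in ND (log2 -0.18). Cftr, the chloride channel of duct cells, had 25 reads in HFD_DMSO and 6 in ND.

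Genes of mucous and secretory epithelia were listed with the high values of some of them in HFD_DMSO already known, so their counts and median describe that choice. Of 13, 9 were higher and 0 lower, and their median was 6.01 (5.85 after GC centring). All 13 reached 100 in HFD_DMSO but only 5 in ND, so the others entered the count through the library where they were higher. Over all 22 with a value, without the minimum, the median was 3.54. Obp2b, a lipocalin that binds odorants, had 285 reads in HFD_DMSO and 0 in ND, at least 145-fold higher against a floor of 3 reads. Dpep1, a dipeptidase, had 208 reads in HFD_DMSO and 0 in ND (at least 106-fold), and the water channel Aqp5 87 reads in HFD_DMSO and 0 in ND (at least 44.3-fold). Lcn2, a lipocalin of injured epithelia and of neutrophils, had 500.5 in HFD_DMSO and 3.22 in ND (log2 6.89), and the gel-forming mucin Muc6 206 in HFD_DMSO and 7.27 in ND (log2 4.65). Ces1d, a carboxylesterase, had 1263 in HFD_DMSO and 18.6 in ND (log2 6.01). Tff2 and Muc4, which are mucosal products too, had 424 in HFD_DMSO and 555 in ND (log2 -0.39) and 783 in HFD_DMSO and 1077 in ND (log2 -0.46). Over all genes, 6 with at least 100 normalized counts in HFD_DMSO had no read in ND, and 1 gene had the reverse.

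Extracellular matrix genes were widely higher. Of 23 small proteoglycans and matrix glycoproteins 21 were higher and 0 lower (median 3.38, and 3.13 after GC centring). All 23 reached 100 in HFD_DMSO but only 8 in ND, and over all 33 with a value, without the minimum, the median was 2.60. Dcn (chromosome 10, 97479609 to 97518143), decorin, which coats collagen fibrils, had 1898 in HFD_DMSO and 42.9 in ND (log2 5.44). Lum, lumican, had 603 in HFD_DMSO and 12.1 in ND (log2 5.52), and Bgn, biglycan, 942 in HFD_DMSO and 46.1 in ND (log2 4.32). Elastic fibre genes were higher as well, with Eln, elastin, at 371 in HFD_DMSO and 32.4 in ND (log2 3.48) and Mfap4 at 188 in HFD_DMSO and 0.79 in ND (log2 6.72), where ND had 1 read and the counting interval was 5.36 to 13.17. Emilin1 and Nid1 were the 2 members inside 2-fold.

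Of 21 collagen chains 16 were higher and 0 lower (median 2.08). All 21 reached 100 in HFD_DMSO but only 9 in ND, and over all 42 with a value, without the minimum, the median was 1.48. Chains of fibrillar and microfibrillar collagen led, with Col1a1 at 502 in HFD_DMSO and 8.89 in ND (log2 5.67), Col3a1 at 2275 in HFD_DMSO and 110.0 in ND (log2 4.36) and Col6a2 at 379 in HFD_DMSO and 11.3 in ND (log2 4.95). Basement membrane chains differed less, with Col4a1 at 1419 in HFD_DMSO and 897 in ND (log2 0.66) and Col4a2 at 989 in HFD_DMSO and 365 in ND (log2 1.44). Collagen transcripts are rich in GC, and the median after GC centring was 1.16, with 12 of 21 then past 2-fold. Among 25 integrins and laminins 13 were higher and 2 lower, and after GC centring 12 were higher and 0 lower. All 25 reached 100 in HFD_DMSO but only 16 in ND. Over all 42 with a value the median was 1.34, against 1.01 for the 25. Itgb1, the common beta subunit, had 1632 in HFD_DMSO and 4750 in ND (log2 -1.54), but was not lower by 2-fold after GC centring.

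Matrix proteases held the largest difference in the table among genes with reads in both libraries. Mmp7 (chromosome 9, 7692090 to 7699585), matrilysin, an epithelial protease, had 964 reads in HFD_DMSO and 3 in ND, or normalized counts of 1191 in HFD_DMSO and 2.41 in ND (log2 8.45), with a counting interval of 7.39 to 11.22. Mmp2, a gelatinase of stromal cells, had 604 in HFD_DMSO and 2.41 in ND (log2 7.47), with a counting interval of 6.40 to 10.24, and Mmp14, which activates it, 593 in HFD_DMSO and 15.4 in ND (log2 5.18). Of 19 proteases and TIMPs 10 were higher and 3 lower, and 17 of the 19 reached 100 in HFD_DMSO but only 11 in ND. Adam9 (253 in HFD_DMSO and 916 in ND, log2 -1.85) and Adam22 (382 in HFD_DMSO and 1508 in ND, log2 -1.98) stood on the other side, and Timp3, an inhibitor, had 545 in HFD_DMSO and 716 in ND (log2 -0.39).

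Genes of fibroblasts, stellate cells and pericytes were higher in 10 of 16 cases and lower in 0 (median 1.89, and 1.45 after GC centring). All 16 reached 100 in HFD_DMSO but only 8 in ND, so the others entered through the library where they were higher. Over all 26 with a value, without the minimum, the median was 1.96. Pdgfra, a growth factor receptor of fibroblasts, had 239 in HFD_DMSO and 2.41 in ND (log2 6.13), resting on 3 reads in ND with a counting interval of 5.05 to 8.91, and Igf1 306 in HFD_DMSO and 28.3 in ND (log2 3.39). The contractile genes Acta2 and Myh11 had 261 in HFD_DMSO and 188 in ND (log2 0.47) and 277 in HFD_DMSO and 156 in ND (log2 0.82). Rgs5, a pericyte gene, had 2248 in HFD_DMSO and 2230 in ND (log2 0.01), so the fibroblast members accounted for the largest values. Of 23 endothelial genes 11 were higher and 1 lower (median 0.91, and 0.69 after GC centring). Plvap, a protein of fenestrated vessels, had 3124 in HFD_DMSO and 791 in ND (log2 1.98), and Eng, endoglin, 2099 in HFD_DMSO and 248 in ND (log2 3.07). Pecam1 and Cdh5, junction genes of all endothelium, had 787 in HFD_DMSO and 856 in ND (log2 -0.12) and 229 in HFD_DMSO and 172 in ND (log2 0.41). Lyve1, a lymphatic receptor, had 51.9 in HFD_DMSO and 216 in ND (log2 -2.04). Haemoglobin genes, which mark blood in the islets, were also higher, with Hba-a1 at 930.5 in HFD_DMSO and 248 in ND (log2 1.91).

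**Figure D4:**
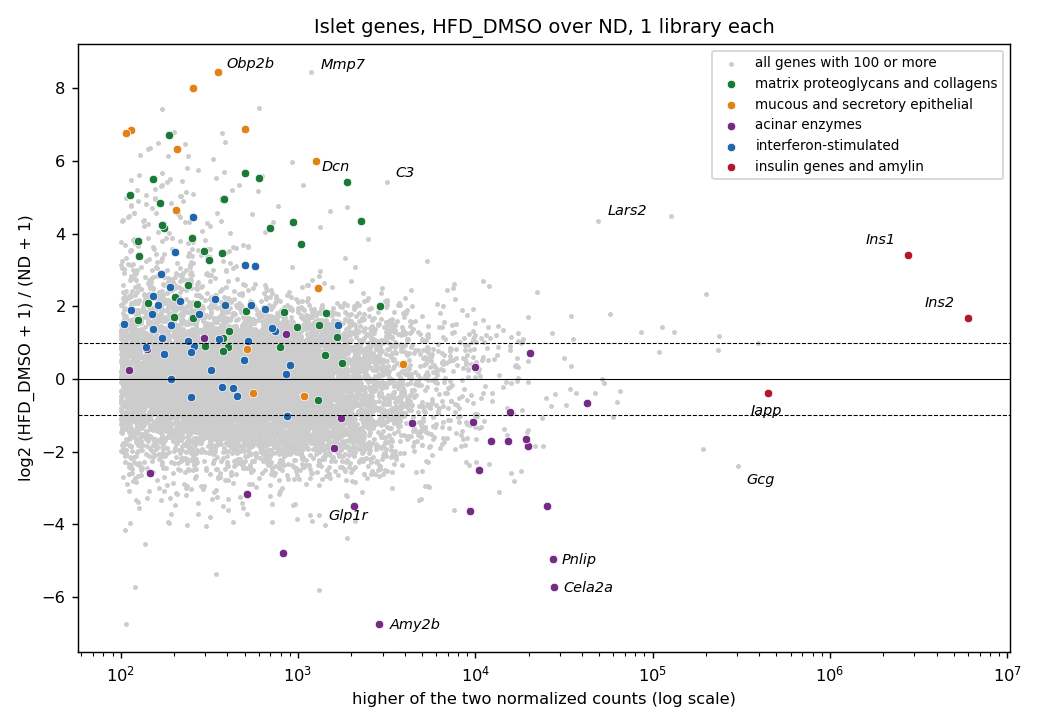
Log2 difference (HFD_DMSO over ND) of the 11263 genes with 100 or more normalized counts in the higher library, against that higher count (log axis); dashed lines mark 2-fold and colours mark gene lists. Matrix, mucous and interferon-stimulated genes lie mostly above the upper line; the mucous genes were listed with high values of some already known. Acinar enzymes lie mostly below the lower line, down to -5.72 for Cela2a, and the point at -6.74 is Amy2b, annotated as a pseudogene.

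Interferon-stimulated genes, which cells switch on when interferon signals through STAT and IRF factors, were higher in 26 of 40 cases and lower in 1. Their median was 1.38, and 1.64 after GC centring, with 30 then past 2-fold. All 40 reached 100 in HFD_DMSO but only 21 in ND, so the others entered through the library where they were higher. Over all 44 with a value, without the minimum, the median was 1.44. Isg15, a ubiquitin-like modifier, had 201 in HFD_DMSO and 17.0 in ND (log2 3.49), and Ifit3, an antiviral protein, 502 in HFD_DMSO and 55.8 in ND (log2 3.15). Irf7, the factor that amplifies the response, had 573 in HFD_DMSO and 65.5 in ND (log2 3.11), and Ifi27l2a 255 in HFD_DMSO and 10.5 in ND (log2 4.47). Some sensors and regulators did not follow, with Ifih1 at 175 in HFD_DMSO and 248 in ND (log2 -0.50), Usp18 at 329 in HFD_DMSO and 452 in ND (log2 -0.46) and Cmpk2 at 429 in HFD_DMSO and 863 in ND (log2 -1.01). Cmpk2 was the lower member.

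The promoters of 4 genes are shown because their differences range from large to none while the list is known for a shared element, the interferon-stimulated response element. Each run is the 250 bases before the RefSeq gene start on GRCm38.p6, read 5′ to 3′ on the gene's strand, and capitals mark matches to GAAANNGAAA on either strand, overlapping matches merged. Isg15, Ifit3 and Irf7 were picked before their matches were known, and Gbp7 after its match and its value were seen. Promoters of 3 heat shock genes, also picked in advance, held no match to the second motif below and are not printed.
Isg15, chr4:156200819-156201068 (minus strand): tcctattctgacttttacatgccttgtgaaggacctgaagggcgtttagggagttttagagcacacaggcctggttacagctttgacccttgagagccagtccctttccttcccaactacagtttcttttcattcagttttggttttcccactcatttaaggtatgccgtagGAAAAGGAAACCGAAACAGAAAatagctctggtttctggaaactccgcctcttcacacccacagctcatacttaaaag
Ifit3, chr19:34583279-34583528 (plus strand): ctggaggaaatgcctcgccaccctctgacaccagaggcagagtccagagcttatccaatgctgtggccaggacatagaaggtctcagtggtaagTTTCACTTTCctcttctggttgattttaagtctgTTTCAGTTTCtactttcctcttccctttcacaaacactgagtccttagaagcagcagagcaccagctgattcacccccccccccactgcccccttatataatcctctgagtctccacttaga
Gbp7, chr3:142530086-142530335 (plus strand): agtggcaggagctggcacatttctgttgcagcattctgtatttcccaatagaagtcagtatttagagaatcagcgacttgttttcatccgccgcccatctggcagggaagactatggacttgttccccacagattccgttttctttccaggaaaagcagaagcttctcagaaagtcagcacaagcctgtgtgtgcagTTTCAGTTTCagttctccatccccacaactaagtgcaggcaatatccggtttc
Irf7, chr7:141266425-141266674 (minus strand): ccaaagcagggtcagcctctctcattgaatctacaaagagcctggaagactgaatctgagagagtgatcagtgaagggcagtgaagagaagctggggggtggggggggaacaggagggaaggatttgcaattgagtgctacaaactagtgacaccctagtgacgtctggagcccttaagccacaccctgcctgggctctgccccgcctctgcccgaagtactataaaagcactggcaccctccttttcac

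Isg15 held 3 matches, Ifit3 2, Gbp7 1 and Irf7 0. Gbp7, a guanylate-binding protein, had 193 in HFD_DMSO and 193 in ND (log2 0.00) with a match in its promoter, and Irf7 stood at log2 3.11 with none. Of the 29 list members with a promoter in the RefSeq table, 14 (48.3%) held the motif. The share was 52.6% of the 19 that were higher and 40% of the 10 that were not, against 3.18% of 8656 promoters of genes with 100 or more and 3.46% of all 27025. The motif was thus common both in higher members and in the others, on a list that holds genes known to respond to interferon. The heat shock element GAANNTTCNNGAA, searched on both strands in the same way, was in 0 of 4 higher heat shock genes and 2 of 11 others, against 0.462% of genes with 100 or more.

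Antigen presentation was higher in 14 of 25 genes and lower in 2 (median 1.09, and 0.88 after GC centring). Cd74, the invariant chain of class II, had 4140 in HFD_DMSO and 1118 in ND (log2 1.89), and H2-Ab1, a class II chain, 1982 in HFD_DMSO and 575 in ND (log2 1.78). The class I chains H2-K1 and H2-D1 had 12729 in HFD_DMSO and 8762 in ND (log2 0.54) and 5294 in HFD_DMSO and 3919 in ND (log2 0.43), and B2m, their partner, 4010 in HFD_DMSO and 2093 in ND (log2 0.94). H2-Q genes were both among the highest and the lowest, and as near-identical copies their counts are uncertain. Erap1, a peptide-trimming enzyme, had 352 in HFD_DMSO and 1571 in ND (log2 -2.15).

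Complement genes were higher in 11 of 18 cases and lower in 1 (median 1.77, and 1.40 after GC centring). All 18 reached 100 in HFD_DMSO but only 10 in ND, so the others entered through the library where they were higher. Over all 31 with a value, without the minimum, the median was 1.36. C3 (chromosome 17, 57203970 to 57228136), the component on which all complement routes meet, had 3172 in HFD_DMSO and 72.8 in ND (log2 5.43), with a counting interval of 5.14 to 5.76. C4b, which acts just before it, had 923 in HFD_DMSO and 13.7 in ND (log2 5.97). Clu, clusterin, had 11943 in HFD_DMSO and 2019 in ND (log2 2.56). The C1q chains, made by macrophages, differed less, with C1qa at 1841 in HFD_DMSO and 1360 in ND (log2 0.44) and C1qc at 436 in HFD_DMSO and 336 in ND (log2 0.38).

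Immune cell genes at a countable level were few. Of 16 macrophage genes 5 were higher and 0 lower (median 0.82), with Lyz2, lysozyme, at 1590 in HFD_DMSO and 448 in ND (log2 1.83) and Cd68 at 147 in HFD_DMSO and 50.2 in ND (log2 1.53). All 16 reached 100 in HFD_DMSO but only 10 in ND, and over all 24 with a value the median was 0.91. The macrophage marker Adgre1 had 77.9 in HFD_DMSO and 94.7 in ND (log2 -0.28), and Csf1r, the receptor for macrophage growth factor, 241 in HFD_DMSO and 157 in ND (log2 0.62). Only 5 of 30 lymphocyte genes reached 100, and 4 of these were higher. Among 11 chemokine genes 7 were higher and 1 lower, with Cxcl9 (133 in HFD_DMSO and 5.65 in ND, log2 4.34) and Cxcl10 (167 in HFD_DMSO and 30.7 in ND, log2 2.40), both interferon-induced, and Ccl28, an epithelial chemokine, at 135 in HFD_DMSO and 612 in ND (log2 -2.17). All 11 reached 100 in HFD_DMSO but only 4 in ND, so the others entered through the library where they were higher. Over all 43 with a value the median was 1.81, against 1.26 for the 11. In the interleukin-1 and NF-kB list 8 of 20 were higher and 3 lower, and after GC centring 5 were higher and 1 lower. Vcam1, an adhesion molecule, had 252 in HFD_DMSO and 20.2 in ND (log2 3.58), and Il1r1, the interleukin-1 receptor, 1576 in HFD_DMSO and 13543 in ND (log2 -3.10). The receptor Il1r1 and its partner Il1rap (37.1 in HFD_DMSO and 148 in ND, log2 -1.97) were thus both lower, and stood at -2.25 and -0.96 after GC centring. The target gene Tnfaip3 had 337 in HFD_DMSO and 113 in ND (log2 1.57).

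Immediate early genes, which are transcribed within minutes of a stimulus, were higher in 17 of 27 cases and lower in 0 (median 1.21, and 0.72 after GC centring). Atf3 had 2994 in HFD_DMSO and 526 in ND (log2 2.51), Ier2 2932 in HFD_DMSO and 565 in ND (log2 2.37), Fosb 14408 in HFD_DMSO and 5669 in ND (log2 1.35) and Junb 4734 in HFD_DMSO and 1950 in ND (log2 1.28). After GC centring 9 of 27 were past 2-fold. Heat shock genes were higher in 6 of 21 cases and lower in 0. The small chaperones Hspb1 and Cryab had 1981 in HFD_DMSO and 304 in ND (log2 2.70) and 203 in HFD_DMSO and 28.3 in ND (log2 2.80), and Hspa1a 10014 in HFD_DMSO and 3422 in ND (log2 1.55), while Hsp90aa1 had 6937 in HFD_DMSO and 9491 in ND (log2 -0.45). Hspa1a stood at 0.70 after GC centring, inside 2-fold, while 8 of the 21 genes were then higher and 1 lower.

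Genes of the endoplasmic reticulum stress responses did not move as a block. Of 23 ATF4 and PERK genes 6 were higher and 2 lower (median 0.26, and -0.28 with library totals), and after GC centring 3 were higher and 0 lower. Atf5 had 4395 in HFD_DMSO and 1471 in ND (log2 1.58), and Ddit3, which encodes CHOP, 1354 in HFD_DMSO and 587 in ND (log2 1.21), while Asns, asparagine synthetase, had 1662 in HFD_DMSO and 3201 in ND (log2 -0.95). Atf5 stood at 0.67 after GC centring, inside 2-fold. Of 37 folding and ERAD genes 3 were higher and 8 lower (median -0.29), and after GC centring 2 were higher and 3 lower (median -0.15). Ern1, which encodes the sensor IRE1, had 545 in HFD_DMSO and 1777 in ND (log2 -1.70), Atf6, another sensor, 995 in HFD_DMSO and 2084 in ND (log2 -1.07), and the chaperone Hsp90b1 8456 in HFD_DMSO and 16259 in ND (log2 -0.94). Hsp90b1 stood at 0.06 after GC centring. Of 20 p53 targets and cell cycle inhibitors 6 were higher and 1 lower, with Cdkn1a at 1074 in HFD_DMSO and 284 in ND (log2 1.91) and Cdkn1b at 541 in HFD_DMSO and 1386 in ND (log2 -1.36).

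Transcripts of the mitochondrial genome were higher, though their GC content is low. They took 5.82% of the HFD_DMSO reads and 3.80% of the ND reads. Of 12 mitochondrially encoded protein genes 8 were higher and 0 lower (median 1.28, and 2.40 after GC centring). mt-Nd6 had 57752 in HFD_DMSO and 16803 in ND (log2 1.78), mt-Cytb 236847 in HFD_DMSO and 105166 in ND (log2 1.17) and mt-Co1 394662 in HFD_DMSO and 198593 in ND (log2 0.99). The mitochondrial rRNAs mt-Rnr1 and mt-Rnr2 had 11032 in HFD_DMSO and 1692 in ND (log2 2.70) and 22174 in HFD_DMSO and 4184 in ND (log2 2.41). Nuclear rRNA annotated as CT010467.1 had 200939 in HFD_DMSO and 39675 in ND (log2 2.34), and Lars2, which encodes mitochondrial leucyl-tRNA synthetase, 49397 in HFD_DMSO and 2414 in ND (log2 4.35). Gm23935, annotated as a miRNA gene, had 127625 in HFD_DMSO and 5713 in ND (log2 4.48). Ribosomal RNA, mitochondrial RNA and Lars2 thus took a larger share of the HFD_DMSO library, and their part in the other differences was not tested.

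Nuclear genes of energy metabolism split. Of 73 respiratory chain genes 12 were higher and 4 lower (median 0.16, and -0.38 with library totals), with Atp5e at 6665 in HFD_DMSO and 2239 in ND (log2 1.57) and Uqcrc2 at 724 in HFD_DMSO and 2269 in ND (log2 -1.65). Citric acid cycle genes were higher in 0 of 22 cases and lower in 7 (median -0.48), but after GC centring 1 was higher and 2 were lower (median -0.37). Among the 7 was Idh3a, a subunit of isocitrate dehydrogenase, with 356 in HFD_DMSO and 1247 in ND (log2 -1.81). On a list of 21 genes of glycolysis and its regulation 5 were higher, with Eno3, an enolase, at 2322 in HFD_DMSO and 451 in ND (log2 2.36). The 2 lower members are not glycolytic enzymes. Pdk1, a kinase that inhibits pyruvate dehydrogenase, had 284 in HFD_DMSO and 759 in ND (log2 -1.41), and Bnip3, a protein of mitophagy, 253 in HFD_DMSO and 1343 in ND (log2 -2.40). Of 22 cholesterol synthesis genes 3 were higher and 8 lower. Idi1 had 13.6 in HFD_DMSO and 142 in ND (log2 -3.29), and Mvd, an enzyme of the same route, 271 in HFD_DMSO and 54.2 in ND (log2 2.30). Of 29 genes of fatty acid synthesis, oxidation and storage 7 were higher and 3 lower. Angptl4, an inhibitor of lipoprotein lipase, had 217 in HFD_DMSO and 5.65 in ND (log2 5.04). Acly, which makes cytosolic acetyl-CoA, had 7188 in HFD_DMSO and 19669 in ND (log2 -1.45), and Fasn, fatty acid synthase, 1524 in HFD_DMSO and 793 in ND (log2 0.94).

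Of 85 cytosolic ribosomal protein genes 18 were higher and 0 lower (median 0.48, and -0.06 with library totals), and many have processed copies that can share reads. The 45 proteasome genes held 6 higher and 5 lower (median -0.12), and after GC centring 3 higher and 0 lower (median 0.12). In the V-ATPase and lysosomal list 7 of 39 were higher and 13 lower, but after GC centring 5 were higher and 3 lower. Cathepsin K, Ctsk, a matrix-degrading protease, had 162 in HFD_DMSO and 8.89 in ND (log2 4.04), and Atp6v1a, the catalytic pump subunit, 442 in HFD_DMSO and 2853 in ND (log2 -2.69). Of 31 SR and hnRNP splicing genes 0 were higher and 7 lower (median -0.63), but the median was 0.12 after GC centring, which turns its sign. The 271 zinc finger genes named Zfp had a median of -0.74, with 104 lower, and of -0.15 after GC centring, with 30 lower. In the MNK and eIF4F list, 3 of 21 were higher and 5 lower, and after GC centring 3 were higher and 1 lower. The kinase genes Mknk1 and Mknk2, which phosphorylate the cap-binding factor, had 792 in HFD_DMSO and 733 in ND (log2 0.11) and 921 in HFD_DMSO and 387 in ND (log2 1.25), and Eif4e, that factor, 526 in HFD_DMSO and 1814 in ND (log2 -1.78). Mknk2 stood at 0.34 after GC centring, inside 2-fold. Of 17 cell cycle genes 1 was higher and 3 lower, and the proliferation marker Mki67 had 111 in HFD_DMSO and 117 in ND (log2 -0.08).

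Smaller lists gave mixed counts, to be read beside the 16.2% higher and 21.5% lower of all genes with 100 or more. Of 33 antioxidant genes 4 were higher and 5 lower, and after GC centring 6 and 2, with Selenop, the selenium carrier, at 2061 in HFD_DMSO and 10151 in ND (log2 -2.30) and Gsta3, a glutathione transferase, at 305 in HFD_DMSO and 14.6 in ND (log2 4.30). Of 18 metallothioneins and zinc transporters 2 were higher and 6 lower, and after GC centring 2 and 3. Of 16 imprinted genes, which are expressed from 1 parental copy, 1 was higher and 6 lower (median -0.75, and -0.53 after GC centring), with Peg3 at 6645 in HFD_DMSO and 24035 in ND (log2 -1.85) and Zim1 at 281 in HFD_DMSO and 1617 in ND (log2 -2.52). Clock genes held 3 higher and 3 lower of 17, with Clock at 578 in HFD_DMSO and 2145 in ND (log2 -1.89) and Nfil3 at 523 in HFD_DMSO and 177 in ND (log2 1.56). Histone genes held 4 higher and 6 lower of 21, and after GC centring 2 and 4.

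**Figure D5:**
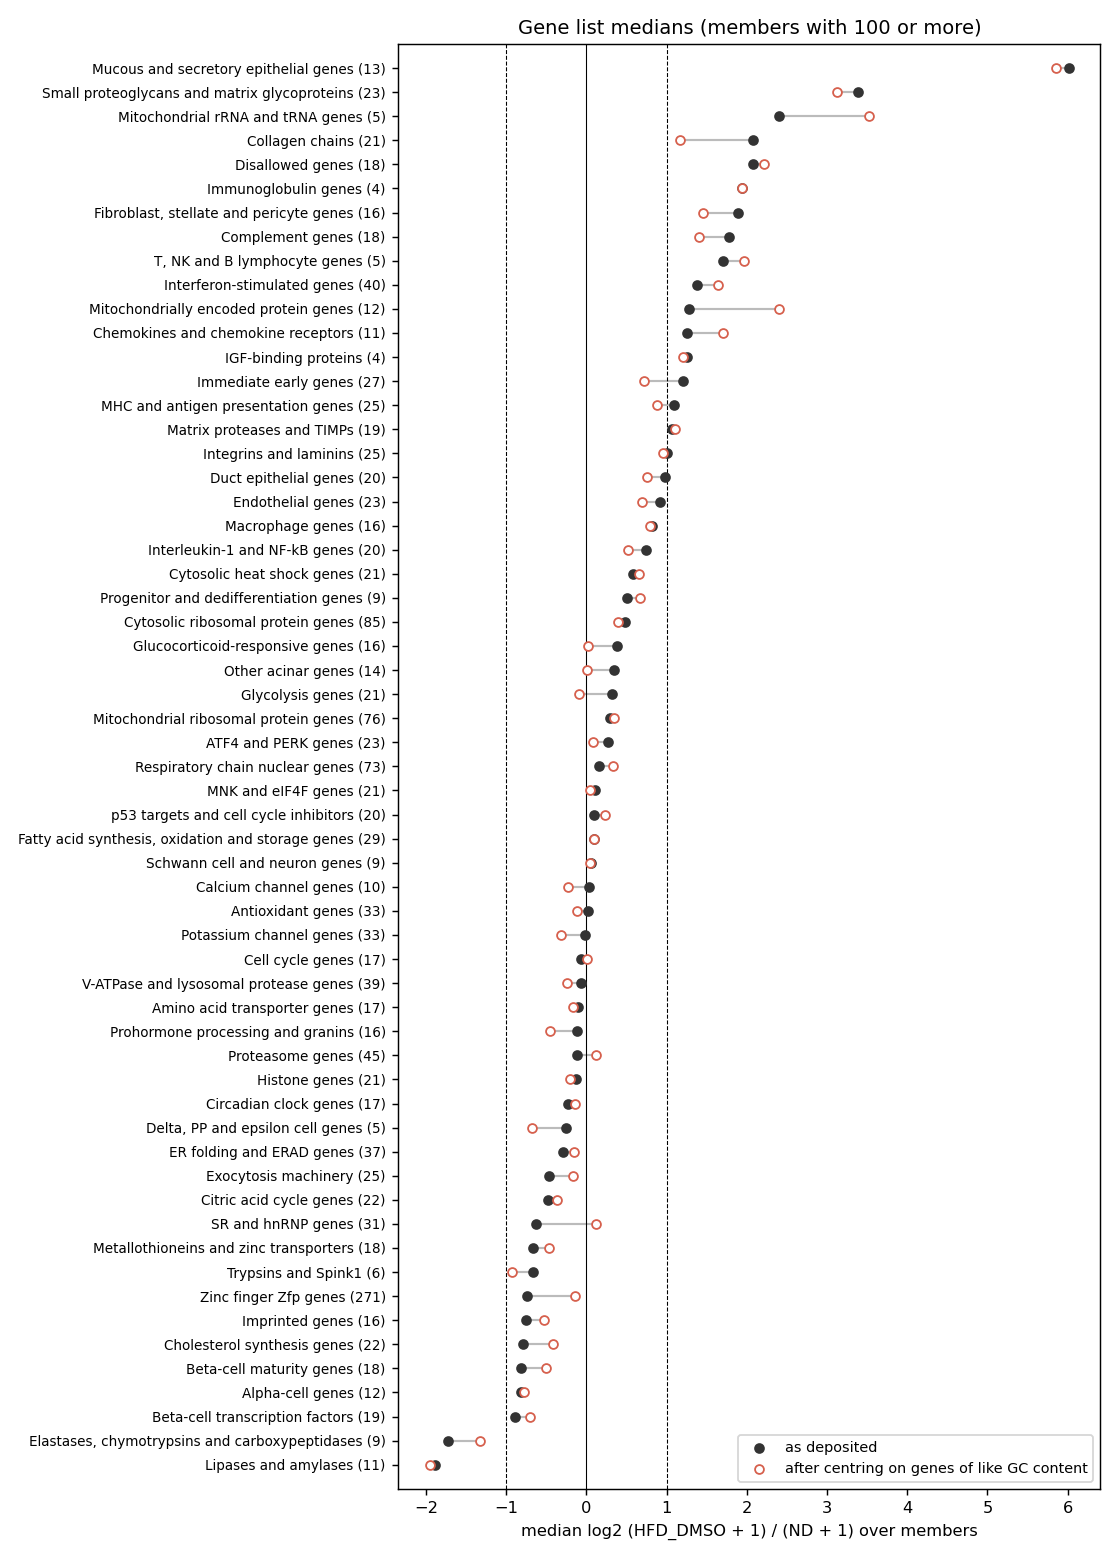
Median log2 difference (HFD_DMSO over ND) of each gene list with at least 4 members at 100 or more normalized counts, with that number of members in brackets. Filled points are values as deposited and open points values after centring on genes of like GC content; medians run from -1.89 for lipases and amylases to 6.01 for mucous and secretory epithelial genes, a list made with high values of some of its members known.

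Some of the most extreme genes lie outside the groups above. The highest protein-coding genes with 100 or more include Htra3, a secreted protease (374 in HFD_DMSO and 2.41 in ND, log2 6.78), Tnfrsf19, a receptor of the TNF family (386 in HFD_DMSO and 3.22 in ND, log2 6.52), and Cyp1b1, a cytochrome P450 (129 in HFD_DMSO and 0.79 in ND, log2 6.18). With 1000 or more they include Cp, ceruloplasmin, a copper carrier (1511 in HFD_DMSO and 60.7 in ND, log2 4.62), and Gas6, a ligand of TAM receptors (2476 in HFD_DMSO and 169.9 in ND, log2 3.86). ND held 3 reads of Htra3 and 1 of Cyp1b1, with counting intervals of 5.71 to 9.55 and 4.80 to 12.63. On the lower side stood Sacm1l, a phosphoinositide phosphatase (86.5 in HFD_DMSO and 1417 in ND, log2 -4.02), Ncoa4, the receptor for ferritin turnover (79.1 in HFD_DMSO and 1203 in ND, log2 -3.91), Atm, the DNA damage kinase (86.5 in HFD_DMSO and 1165 in ND, log2 -3.74), and the deubiquitinases Usp33 (138 in HFD_DMSO and 2107 in ND, log2 -3.92) and Usp9x (475 in HFD_DMSO and 4793 in ND, log2 -3.33). Atm and Usp9x stood at -2.73 and -2.25 after GC centring. A difference of 16-fold or more was found for 109 genes that were higher and 14 that were lower.

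By protein family, the highest median of 142 Pfam families with at least 10 genes belonged to C1-set immunoglobulin domains (1.38, and 1.23 after GC centring), followed by VWA domains (1.35, and 1.01), laminin G domains (1.29, and 0.70) and collagen (1.22, and 0.40). The lowest belonged to phosphoinositide 3- and 4-kinase domains (-1.21, and -0.51 after GC centring), and KRAB zinc finger genes had -0.88, or -0.02 after centring. After GC centring the lowest family was JmjC, at -0.83 against -0.69 before. By chromosome, the 356 genes of X had a median of -0.74, with 40.2% lower, and of -0.21 after GC centring. By transcript length, the bin of shortest transcripts stood at 0.38 and that of the longest at -0.64, or at 0.15 and -0.22 after GC centring. Of 1213 loci annotated as TEC, a class of loci awaiting experimental evidence, 32 reached 100 normalized counts in the higher library. Of these 32, 16 were higher and 9 lower, and 9 were higher by 16-fold or more, against 109 of all 11263 genes with 100 or more. In ND, 8 of the 32 had under 10 normalized counts, where differences are imprecise.

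In the authors' deposited table, 2888 genes (12.6%) had an adjusted p under 0.05 and were higher in HFD_DMSO, and 3023 (13.2%) were lower, out of 22899. With 1 library a side that p cannot rest on a measured spread between animals. Recomputation gave the same statistics from edgeR's exact test at a fixed dispersion of 0.04, an assumed coefficient of variation of 0.2 between animals.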

How the data were processed

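Islet RNA-seq libraries of HFD_DMSO and ND were compared, 1 library each, and the HFD_CGP library was used only to check read recovery. Per the labels' protocols, Trizol was used on flash-frozen islets, and 1 ug of total RNA entered each TruSeq library. Not given in the sources used here are the aligner, counter, genome build and strand setting. The submitters' processing notes name DESeq2 1.10.1. The authors deposited per pair a signal column for each library (read counts scaled to a shared library size), a log2 fold change and p-value columns, raw and adjusted. Signal values were whole multiples of the value of 1 read (1.24 in HFD_DMSO, 0.809 in ND) after a small offset: 99.99% and 99.996% came out within 0.1 of a whole number. A count of 0 allows up to 3 reads, or 0.184 CPM in HFD_DMSO and 0.175 CPM in ND. Found by recomputation and recorded in no label, edgeR 4.0.16's exact test with TMM factors and dispersion 0.04 on these reads gave the deposited log2 values. An empty line was left out.

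The log2 difference used a pseudocount of 1 and genes with 100 or more in the higher column; no test was run, for lack of replicates. Symbols and coordinates are those of the table, and 99.9% of its gene IDs were found in GENCODE M21 (GRCm38). GC content was centred within 20 bins of transcript GC. Genes named were the 15 highest and lowest protein-coding genes at 100 and at 1000, the 15 most abundant per library, the 4 highest and lowest members of each of 66 lists, and hormone, MNK and Eif4e genes; further list members named in the text were added after their values were seen. The members and lists were chosen with earlier results of these data known. The design had assumed normalized counts with no recoverable reads. Calculations used Python 3.11.15, pandas 2.3.3, numpy 2.4.6, scipy 1.17.1, statsmodels 0.14.6 and R 4.3.3; the scripts were tested on simulated data. The values of some list members are not reported here.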

Additional observations from a re-analysis of the deposited data

How the results depend on the processing

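No paired analysis was possible because each group has 1 library, and leaving out a replicate was not possible for the same reason. Of 1828 higher and 2427 lower genes, scaling by library totals gave 875 and 4290, since it shifts every difference by -0.54, and GC centring gave 1485 and 1187. Counts of higher and lower genes were 3607 and 3653 at a minimum of 10, 464 and 834 at 1000, 5133 and 6369 with no minimum, and 486 and 456 at 4-fold. They moved by under 1.5 times with a pseudocount of 10, totals without the insulin genes, relative log expression factors, and protein-coding genes alone. Of 348 named genes past 2-fold, 257 stayed past it in the same direction after GC centring and 295 with library totals. Of 59 list medians, 14 changed sign with library totals and 6 after GC centring. Atp5f1 turned sign after GC centring, to 0.014. The 5911 genes called in the authors' deposited table became 526 in edgeR's exact test with an assumed coefficient of variation of 0.4 instead of 0.2. The cause of these moves was not tested beyond the shifts named. Genes with 1 to 3 reads in a library have imprecise differences at this depth.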
